A study of Mus musculus with 158 samples.

Results

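Hairpins against 3 ion channel genes, Nalcn, Ryr2 and Grik2, were followed in a pooled short hairpin RNA (shRNA) screen of a mouse pancreatic cancer line. An shRNA is an expressed hairpin that lowers the messenger RNA of 1 target gene, and each hairpin here is named by its identifier in the deposited tables. All hairpins whose target was given as 1 of the 3 genes were taken, each in the libraries of its own pool. They numbered 12 of 1000 targeting hairpins, with 4 for each gene, and stood for 3 of 285 targeted genes. The tables gave the targets as NM_177393 (Nalcn), NM_023868 (Ryr2) and NM_010349 (Grik2), and 3 of 3 accessions carried the same symbol in RefSeq. Expression of the 3 genes and the knockdown reached by each hairpin were not analysed here.

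Nalcn is the pore of the sodium leak channel, which lets sodium into resting cells and sets their excitability. Ryr2 is the ryanodine receptor best known from heart muscle, a very large channel that releases calcium from the sarcoplasmic or endoplasmic reticulum. Grik2 is a subunit of kainate receptors, glutamate-gated channels of neurons that pass sodium and, in their unedited form, calcium. In a pooled screen the share of reads that a hairpin takes stands for the share of cells that carry it. A falling share cannot be told apart from growth of the cells that carry other hairpins, so each hairpin was read against the other targeting hairpins of its pool.

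The cells were PDA530 Met, a single mouse line of pancreatic adenocarcinoma taken from a liver metastasis. Each of 19 virus pools was used to infect the same line at a dose chosen to leave most infected cells with a single hairpin, and infected cells were kept by puromycin selection, so all groups share line, vector and selection. The day 0 group is a pellet of these cells before injection, the culture group was grown in dishes for 28 days, and the lung group holds all lung tumours of a mouse, pooled, 28 days after injection into the tail vein. The strain, age and immune status of the mice are not given in the labels. Per the labels' protocols the lung libraries of a pool come from different mice, whereas for day 0 and culture nothing names separate infections, so p-values there measure the spread between libraries, which may be technical.

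The 12 hairpins lay in 4 pools. Pool 6 held all 4 Grik2 hairpins and 2 Ryr2 hairpins, pool 16 held 2 Ryr2 hairpins, and pools 10 and 18 held 2 Nalcn hairpins each. Pools 6 and 18 had 3 libraries in each group, pool 10 had 3 at day 0, 6 in culture and 3 from lungs, and pool 16 had 3, 5 and 2. Most culture libraries were named for a pair of pools and held both, so culture library 9/10B, for example, holds the hairpins of pools 9 and 10.

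Over the series, 148 of 158 samples had values, and the libraries held 4122499 to 22155107 reads for day 0, 4525346 to 26068466 for culture and 58189 to 13887946 for lungs. Several lung libraries of the 4 pools stood apart. In lung library 10C only 1946 of 5658227 reads belonged to pool 10, and 99.2% were control hairpins. Lung library 16D had 42538 reads of pool 16 among 6280972, and 74.0% of its reads came from other pools, with 4457120 from pool 10. The reads of both libraries thus go against their labelled pool, and whether they are lung replicates of pools 10 and 16 cannot be told from the files. This doubt holds for every lung value of these pools that counts them. Lung libraries 6A and 6B were shallow, with 40555 and 252958 reads of pool 6, and control hairpins took 74.4% of 6C. Culture library 16/17A held 15.3% reads of other pools. Values without these libraries are given where they changed a call or a sign. Without 6A and 6B, or without 16D, 1 lung library is left and is assumed to vary like the other group.

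Levels below are in CPM, the hairpin's reads scaled to a common total of the pool's own targeting reads, with TMM factors. Changes are log2 fold changes on the log2(CPM + 1) scale with their standard error (SE), from limma, and a change was called at an adjusted p under 0.05. Because TMM factors were set again for each pair of groups, a fitted change can differ a little from the ratio of the levels. The rank of a hairpin is its place among the tested hairpins of its pool, counted from the most positive change. A replicate letter left out below was left out of that group in every pool at once, and p-values were adjusted again. From day 0 to lungs, 148, 154, 160, 283 and 291 hairpins of all pools were called without day 0 replicate A, B, C, D and E, beside 301. A call lost in this way thus need not rest on the library of its own pool.

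From day 0 to lungs 33.8% of the 891 tested hairpins of all pools were called (14.7% higher, 19.1% lower), and 7 of the 12 were, 5 higher and 2 lower. Their median log2 fold change was 0.35, beside -0.13 over all tested hairpins. From day 0 to culture the background was 60.6% of 945 hairpins (28.8% higher, 31.9% lower), and 9 of the 12 were called, 2 higher and 7 lower, with a median of -0.56 beside -0.10. From culture to lungs the background was 24.9% of 889 hairpins (11.6% higher, 13.3% lower), and 4 of the 12 were called, 3 higher and 1 lower, with a median of 0.83 beside -0.11. Without lung libraries 10C and 16D the backgrounds were 40.2% from day 0 to lungs and 26.3% from culture to lungs over all pools. From day 0 to lungs the background was then 56.9% in pool 10, where Nalcn hairpin TRCN0000173700 was called higher (1.15) and TRCN0000173744 lower (-1.32). In pool 16, where 1 lung library was left, Ryr2 hairpins TRCN0000413349 and TRCN0000419216 changed by 0.86 and -3.50. No gene had its 4 hairpins called in 1 direction in any of the 3 comparisons made with all libraries. The nearest was Ryr2 in culture, with 3 of 4 hairpins lower and none higher.

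The libraries of both groups did not overlap in 10 of the 12 hairpins for day 0 and lungs (56.1% of all tested hairpins), in 9 for day 0 and culture (67.7%) and in 9 for culture and lungs (41.7%). edgeR on the recovered reads called 8, 9 and 5 of the 12 in the same order, where it called 31.3%, 58.5% and 25% of all hairpins.

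The balance of directions depends on the scaling. Of the called hairpins of all pools, 43.5% were higher in lungs than at day 0 with TMM factors. That share was 24.4% by library totals, 30.5% on the deposited scale, 45.4% with the control hairpins as reference and 45.9% with the size factors of DESeq2. Of those called in culture, 47.5% were higher than at day 0 with TMM factors, 26.5% by library totals, 20.6% on the deposited scale, 16.1% with the control reference and 50.3% with the size factors of DESeq2. Of those called between culture and lungs, 46.6% were higher in lungs with TMM factors, 44.6% by library totals, 82.4% with the control reference, 60.6% with the deposited values and 50.2% with the size factors of DESeq2. DESeq2's own test, which changes both scaling and test, gave 54.7% from day 0 to lungs and 58.4% from culture to lungs. The median over all hairpins from day 0 to lungs was -0.13 with TMM factors, -0.73 with library totals, -0.57 with the control reference and -0.82 on the deposited scale. The culture median was -0.10, -0.64, -0.99 and -0.89 in the same order. From day 0 to lungs, library totals ended the higher calls of TRCN0000100272, TRCN0000412654 and TRCN0000413349 and added lower calls of TRCN0000100271 and TRCN0000102843. The control reference and the deposited values ended the higher calls of TRCN0000100272, TRCN0000100273 and TRCN0000413349 and the lower call of TRCN0000419216. The deposited values added a lower call of TRCN0000102843. A fitted change therefore holds for its scaling, and for each hairpin changes relative to the median hairpin of its pool are given too.

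Grik2, the kainate receptor subunit, had hairpins at both ends of pool 6. Hairpin TRCN0000100270 fell in both later groups, most of all in lungs, and hairpin TRCN0000100273 rose in both with TMM factors. The other two had smaller changes from day 0. In pool 6 as a whole the called shares were 45.1% from day 0 to lungs, 78.4% from day 0 to culture and 37.3% from culture to lungs. Without 6A and 6B the lung shares were 84.3% against day 0 and 41.2% against culture.

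Grik2 hairpin TRCN0000100270 stood at 7225, 6652 and 6052 CPM at day 0. It stood at 2796, 4198 and 2561 CPM in culture. In lungs it stood at 552, 107 and 955 CPM in 6A, 6B and 6C. The 3 groups do not overlap, and the order was day 0, culture, lungs from high to low. The lung values rest on 20 reads of pool 6 in 6A, 21 in 6B and 1485 in 6C, which are 0.0493% (exact 95% interval 0.0301 to 0.0762%), 0.00830% (0.00514 to 0.0127%) and 0.0809% (0.0769 to 0.0852%) of that pool's reads. Intervals of this kind cover counting error only. From day 0 to lungs the log2 fold change was -4.01 (SE 0.72, limma, adjusted p = 0.00357), rank 50 of 51. In culture against day 0 it was -1.09 (SE 0.23, adjusted p = 0.00133), rank 40. From culture to lungs it was -3.06 (SE 0.74, adjusted p = 0.00237), rank 51 of 51. Without 6A and 6B, with 1 lung library assumed to vary like the other group, the changes were -2.82 for lungs against day 0 and -1.70 for lungs against culture (adjusted p = 0.0227). With the replicate letter as a block the adjusted p of lungs against culture was 0.0509. The culture call was lost when all 3 groups shared a fit, with an adjusted p of 0.204 and the same change. Against the median hairpin of the pool the changes were -3.99, -1.05 and -2.83, in the order lungs against day 0, culture against day 0 and lungs from culture, the order kept for such values below.

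Grik2 hairpin TRCN0000100273 stood at 12989, 12800 and 11640 CPM at day 0. In culture it stood at 24897, 32053 and 27509 CPM. In lungs it stood at 61378, 54844 and 43393 CPM. The groups again do not overlap, but the order is the reverse of that of TRCN0000100270. Relative to the pool's median hairpin the change was 2.22 in lungs and 1.29 in culture, both from day 0, and 1.12 between culture and lungs. The fitted log2 fold change of lungs against day 0 was 2.17 (SE 0.23, adjusted p = 0.000314), rank 3 of 51, and it was not called with the control reference (0.64, adjusted p = 0.615) or the deposited values (0.87, adjusted p = 0.365). Between day 0 and culture the change was 1.17 (SE 0.11, adjusted p = 1.54e-06), rank 5, against 0.16 with the control reference (adjusted p = 0.306). Between culture and lungs it was 0.86 (SE 0.29, adjusted p = 0.0245), rank 15. That call was lost when culture replicate A, B or C was left out (adjusted p from 0.0554 to 0.142), with library totals (0.66, adjusted p = 0.129), the control reference (0.48, adjusted p = 0.727) or the deposited values (0.42, adjusted p = 0.685), without trend or robust estimation in limma (adjusted p = 0.0723) and with the replicate letter as a block (adjusted p = 0.0592).

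Grik2 hairpin TRCN0000100272 was close among libraries at day 0, with 20316, 21270 and 21799 CPM. It was lower in culture, with 15556, 17673 and 15384 CPM. Its lung levels were 36937, 29133 and 57076 CPM, above every other library of the pool. It rose from day 0 to lungs by 0.99 on the log2 scale (SE 0.27, adjusted p = 0.0208, rank 12 of 51) with TMM factors, while the sign turned with the control reference (-0.54) and the deposited values (-0.31), neither of which called it. That call was also lost with library totals (0.39, adjusted p = 0.363) and without any one of the day 0 replicates A, B and C or without lung replicate A, with adjusted p from 0.0617 to 0.0768. Its culture change was -0.39 (SE 0.10, adjusted p = 0.00527), rank 29. It was lost without day 0 replicate B (adjusted p = 0.0513), with all 3 groups in one fit (adjusted p = 0.249) and with the size factors of DESeq2 (-0.26, adjusted p = 0.0532). From culture to lungs the hairpin rose by 1.24 (SE 0.34, adjusted p = 0.00686), rank 9, and this call was lost without culture replicate C (adjusted p = 0.0512), with the control reference (0.86, adjusted p = 0.528) and with the deposited values (0.80, adjusted p = 0.450). Its changes relative to the pool's median were 1.05, -0.34 and 1.49.

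Grik2 hairpin TRCN0000100271 had the smallest changes of the 4. Its levels were 23413, 24218 and 21979 CPM at day 0. Culture gave 20940, 22783 and 29632 CPM, which spans the day 0 values. Lungs gave 14179, 15346 and 18481 CPM, below all other libraries of the pool. No comparison was called, with log2 fold changes of -0.45 (SE 0.22, adjusted p = 0.133) from day 0 to lungs, 0.06 (SE 0.12, adjusted p = 0.691) from day 0 to culture and -0.65 (SE 0.37, adjusted p = 0.190) from culture to lungs. The lung change from day 0 was called without lung replicate C (-0.55, adjusted p = 0.0192), with library totals (-1.06, adjusted p = 0.00852) and, with 1 lung library left, without 6A and 6B (-0.35, adjusted p = 0.0065). The culture change was called lower with the control reference (-0.95, adjusted p = 6.29e-05) and the deposited values (-0.67, adjusted p = 0.000319), and it turned sign, uncalled, with library totals (-0.20) and without culture replicate C (-0.047). Relative to the median hairpin the 3 changes were -0.43, 0.18 and -0.42, at ranks 33, 24 and 33 of 51. In pool 6 limma's prior for lungs against culture had 30 degrees of freedom, so p-values of that comparison rest largely on the other hairpins of the pool.

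Ryr2, the calcium release channel, had 3 of 4 hairpins lower in culture than at day 0, and 1 of these was the lowest-ranked hairpin of pool 16. From culture to lungs limma called 0 of the 4 and edgeR called 1, and by limma 1 had an unadjusted p under 0.05 (TRCN0000102843, 0.0167). Their median change between culture and lungs was 0.99, beside -0.11 over all hairpins. In lungs against day 0, 1 of the 4 was called higher and 1 lower.

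Ryr2 hairpin TRCN0000102843 of pool 6 stood at 18176, 17297 and 19092 CPM at day 0. In culture it stood at 5454, 2792 and 4584 CPM, below every other library. In lungs it stood at 5959, 13961 and 10915 CPM, between the other groups and overlapping neither. The log2 fold change of culture against day 0 was -2.14 (SE 0.22, adjusted p = 1.5e-05), rank 49 of 51, and this call was kept in every alternative run. The lung change was -0.82 from day 0 (SE 0.33, adjusted p = 0.0854) and, from culture, 1.19 (SE 0.47, adjusted p = 0.0619), neither called. The change from day 0 was larger and called with library totals (-1.42, adjusted p = 0.00649) and the deposited values (-2.12, adjusted p = 0.0355). It was also called without lung replicate A (-0.59, adjusted p = 0.0259), without lung replicate B (-1.14, adjusted p = 0.0149), with all 3 groups in one fit (adjusted p = 0.0451) and, with 1 lung library left, without 6A and 6B (-0.76, adjusted p = 3.03e-07). The change from culture was called without lung replicate A (1.64, adjusted p = 0.00657), without 6A and 6B (1.41, adjusted p = 0.00854), with all 3 groups in one fit (adjusted p = 0.0106), with the size factors of DESeq2 (1.37, adjusted p = 0.0272), by DESeq2 (1.42, adjusted p = 0.002) and by edgeR (1.27, adjusted p = 0.042). The 3 changes relative to the pool's median were -0.79, -2.10 and 1.44.

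Ryr2 hairpin TRCN0000102844 of pool 6 was rare from the start, at 1481, 1581 and 1136 CPM at day 0. Culture gave 355, 603 and 847 CPM, all below day 0. Lungs gave 1352, 2419 and 852 CPM, a range that holds the day 0 values and lies above those of culture. Its culture change was -1.29 on the log2 scale (SE 0.40, adjusted p = 0.0134), rank 43 of 51, lost without day 0 replicate A (adjusted p = 0.0746) or B (0.0778) and with all 3 groups in one fit (0.0538). In lungs it was 0.12 against day 0 (SE 0.52, adjusted p = 0.887) and turned to -0.73 without 6A and 6B, a call that rests on 1 lung library (SE 0.14, adjusted p = 2.17e-05). The sign also turned, uncalled, with library totals (-0.49), the control reference (-1.41) and the deposited values (-1.19), and without day 0 replicate C (-0.035) or lung replicate B (-0.34). From culture to lungs it was 1.27 (SE 0.69, adjusted p = 0.179), rank 7. The lung levels of 6A and 6B rest on 49 and 475 reads. Set against the pool's median, its changes were 0.17, -1.25 and 1.52.

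Ryr2 hairpin TRCN0000419216 of pool 16 stood at 1880, 2584 and 2412 CPM at day 0. In culture it stood at 573 CPM in 16D, 120 in 16E, 314 in 16/17A, 86.3 in 16/17B and 561 in 16/17C. In lungs it stood at 56.4 CPM in 16D and 194 CPM in 16E. All culture and lung libraries lie below all day 0 libraries, while culture and lungs overlap. The value of 16D is 3 reads of 42538, or 0.00705% of pool 16 (exact 95% interval 0.00145 to 0.0206%), and that of 16E is 1023 reads, or 0.0209% (0.0196 to 0.0222%).

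This hairpin had the last rank of 54 in both comparisons against day 0. The log2 fold change of culture against day 0 was -3.19 (SE 0.74, adjusted p = 0.00305), a call kept in every alternative run. Without culture library 16/17A it was -3.24 (adjusted p = 0.00337). In lungs against day 0 it was -4.41 (SE 0.85, adjusted p = 0.0151), and without 16D, with 1 lung library assumed to vary like day 0, it was -3.50 (SE 0.29, adjusted p = 0.000151) and still rank 54. The lung call was lost without day 0 replicate A, D or E (adjusted p from 0.0574 to 0.0726), with the control reference (-7.24, adjusted p = 0.110) and with the deposited values (-7.33, adjusted p = 0.0773). Both of these scalings were run only with 16D kept. The change between culture and lungs was -1.06 (SE 1.05, adjusted p = 0.484). Against the median of pool 16 the changes were -4.18, -3.15 and -0.98. Of the hairpins of pool 16, 27.8% were called from day 0 to lungs (72.2% without 16D), 57.4% from day 0 to culture and 7.41% from culture to lungs.

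The other Ryr2 hairpin of pool 16, TRCN0000413349, stood at 7627, 7689 and 8724 CPM at day 0. In culture it stood at 11860 CPM in 16D, 13983 in 16E, 7547 in 16/17A, 8950 in 16/17B and 10954 in 16/17C. In lungs it stood at 17398 CPM in 16D and 14043 CPM in 16E, above all culture libraries, though 16E exceeds culture 16E only slightly. From day 0 to lungs it rose by 0.99 (SE 0.20, adjusted p = 0.0181, rank 9 of 54) with TMM factors. The sign turned with the control reference (-2.38) and the deposited values (-2.03), neither of which called it. Both were run only with 16D kept, where 74.0% of reads came from other pools. With TMM factors and without 16D, which leaves 1 lung library, the change was 0.86. The call was lost without day 0 replicate A, D or E, with adjusted p from 0.0516 to 0.114, with library totals (0.72, adjusted p = 0.0922) and with the size factors of DESeq2 (adjusted p = 0.0733). Neither culture against day 0 (0.34, SE 0.27, adjusted p = 0.291) nor lungs against culture (0.80, SE 0.41, adjusted p = 0.191) was called. Both turned sign, uncalled, with the control reference (-0.33 and -2.05) and the deposited values (-0.41 and -1.62), and the culture change did with library totals (-0.44). The 3 changes of this hairpin relative to the pool's median were 1.22, 0.50 and 0.93, that of lungs against day 0 first.

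Nalcn, the sodium leak channel, had 2 hairpins in pool 18 that rose from day 0 to lungs and 2 in pool 10 that fell from day 0 to culture. One of the pool 10 hairpins was then among the highest-ranked of its pool for lungs against culture. Of the hairpins of pool 18, 34% were called from day 0 to lungs, 45.3% from day 0 to culture and 24.5% from culture to lungs. In pool 10 these shares were 11.8%, 51% and 11.8%, and without lung library 10C the lung shares were 56.9% against day 0 and 29.4% against culture.

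Nalcn hairpin TRCN0000173700 of pool 10 stood at 25475, 22910 and 21073 CPM at day 0. Culture ran from 5836 CPM in 10/11A through 6645 in 10/11B, 6922 in 9/10C, 7490 in 10/11C and 7522 in 9/10A to 13557 CPM in 9/10B, all below day 0. Lungs gave 53315 CPM in 10A, 49843 in 10B and 13465 in 10C. The first 2 lie above all day 0 libraries, while 10C lies below them and within the culture range. The level of 10C is 5 reads of 1946, or 0.257% of pool 10 (exact 95% interval 0.0835 to 0.599%), against 5.08% in 10A and 5.04% in 10B, and the CPM of 10C is raised by its TMM factor.

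The log2 fold change of TRCN0000173700 from day 0 to culture was -1.49 (SE 0.25, adjusted p = 0.000312), rank 41 of 51. With only the culture libraries of the lane that day 0 and lungs were sequenced in (9/10A to 9/10C), it was -1.35 (SE 0.33, adjusted p = 0.00883). Culture levels averaged 9334 ± 3670 CPM (SD, n = 3) in that lane and 6657 ± 827 CPM (SD, n = 3) in the other. From culture to lungs the hairpin rose by 1.96 (SE 0.46, adjusted p = 0.0120), rank 2 of 51, with TMM factors. The sign turned with the control reference (-1.57) and the deposited values (-1.50), neither of which called it. Both were run only with 10C kept, where 99.2% of reads were control hairpins. With TMM factors and without 10C the change was 2.69 (SE 0.32, adjusted p = 6.68e-05), the highest of the 51 hairpins. With 10C kept, the call was lost with library totals (1.17, adjusted p = 0.341), with the culture libraries of the shared lane alone (1.82, adjusted p = 0.105), without culture replicate A or C (adjusted p = 0.0605 and 0.0963) and without lung replicate B (0.0597). The change between day 0 and lungs was 0.60 (SE 0.49, adjusted p = 0.389). Its sign turned, with 10C kept, with library totals (-0.88, adjusted p = 0.593), the control reference (-4.46, adjusted p = 0.527) and the deposited values (-4.67, adjusted p = 0.498). The hairpin's share of pool 10 reads was 3.62, 3.48 and 3.26% at day 0, 5.08% in 10A, 5.04% in 10B and 0.257% in 10C. With TMM factors, without 10C, the change was 1.15 (SE 0.10, adjusted p = 0.000914). DESeq2 on all 3 lung libraries gave 1.21 (adjusted p = 0.00426). With all libraries the changes relative to the median of pool 10 were 0.70, -1.46 and 2.32.

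Nalcn hairpin TRCN0000173744 of pool 10 was steady at day 0, at 11374, 11102 and 11378 CPM. In culture it stood at 5249, 5280 and 5503 CPM in 10/11A to 10/11C and at 6204, 6198 and 10834 CPM in 9/10A to 9/10C. In lungs it stood at 4079 CPM in 10A and 5034 CPM in 10B, below all day 0 and culture libraries of the pool. In 10C it had 0 of 1946 reads, which allows a share of up to 0.154% (3 reads), against 0.389% in 10A and 0.509% in 10B. All culture and lung levels lie below those of day 0.

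The log2 fold change of TRCN0000173744 from day 0 to culture was -0.74 (SE 0.21, adjusted p = 0.0106), rank 36 of 51, and with the culture libraries of the shared lane alone it was -0.57 (adjusted p = 0.0657). The call was lost with all 3 groups in one fit too (-0.84, adjusted p = 0.789). The fitted change of lungs against day 0, -5.33 (SE 3.32, adjusted p = 0.265), depends on the 0 in 10C and on the pseudocount. Without 10C it was -1.32 (SE 0.19, adjusted p = 0.00503), rank 39, and edgeR on the reads of all 3 lung libraries gave an adjusted p of 0.0259 and DESeq2 0.0225. Between culture and lungs it was -4.59 (SE 2.29, adjusted p = 0.177), and -0.53 without 10C (SE 0.34, adjusted p = 0.267). Relative to the pool's median the changes were -5.27, -0.71 and -4.25. Without 10C those of lungs were -1.10 against day 0 and -0.56 against culture.

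Nalcn hairpin TRCN0000412654 of pool 18 stood at 24672, 24103 and 27104 CPM at day 0. Culture gave 94524, 54165 and 52272 CPM and lungs 42396, 44887 and 35730 CPM. The groups do not overlap, and the order from high to low was culture, lungs, day 0. The log2 fold change of culture against day 0 was 1.35 (SE 0.24, adjusted p = 0.00231), rank 5 of 53, kept in every alternative run. In lungs against day 0 it was 0.58 (SE 0.16, adjusted p = 0.0303), rank 16, lost when any one of the day 0 replicates A, B and C was left out (adjusted p from 0.0917 to 0.197), with library totals (0.31, adjusted p = 0.164), without trend or robust estimation (adjusted p = 0.0857) and with the replicate letter as a block (adjusted p = 0.094). Lungs against culture was not called (-0.68, SE 0.27, adjusted p = 0.108), except with library totals (-0.76, adjusted p = 0.0417) and by DESeq2 (-0.72, adjusted p = 0.0421). Relative to the median of pool 18 its changes were 0.58, 1.48 and -0.63.

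Nalcn hairpin TRCN0000413315 of pool 18 stood at 8029, 8172 and 6538 CPM at day 0. Culture was the most spread group, at 5414, 15887 and 7343 CPM. Lungs gave 30202, 15586 and 21644 CPM, all above day 0 and with 15586 CPM just under the highest culture library. Its lung change from day 0 was 1.41 on the log2 scale (SE 0.31, adjusted p = 0.0116), rank 6 of 53, lost without day 0 replicate A (adjusted p = 0.0726) or C (0.0617). Culture against day 0 was not called (0.19, SE 0.39, adjusted p = 0.704), and its sign turned with library totals (-0.10), the control reference (-0.010), the deposited values (-0.058) and without culture replicate B (-0.10). Between culture and lungs the change was 1.31 (SE 0.49, adjusted p = 0.0887), and it was called without culture replicate B (1.77, adjusted p = 0.0347), with the control reference (1.59, adjusted p = 0.0322), with all 3 groups in one fit (adjusted p = 0.0296) and by DESeq2 (adjusted p = 0.0121). The same values relative to the pool's median were 1.41, 0.32 and 1.45, in the order given above.

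Hairpins of the same gene in the same pool were set against each other over all libraries of the pool, as a description with no test. Pearson's r of log2(CPM + 1) was 0.03 for the Nalcn pair of pool 10 (12 libraries) and -0.04 for that of pool 18 (9 libraries). For Ryr2 it was 0.66 in pool 6 (9 libraries) and -0.68 in pool 16 (10 libraries). The 6 Grik2 pairs (9 libraries) ran from -0.86, between TRCN0000100270 and TRCN0000100273, to 0.78, between TRCN0000100270 and TRCN0000100271. Hairpin pairs of different genes had medians from -0.02 to 0.05 in the 4 pools. The hairpins of a pool share their libraries and are parts of one total, so their values are tied.

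The hairpin of another gene most like each of the 12, by the same r, was also found. Each r below is the highest of 47 to 52 values, over 9 to 12 libraries, so a high value is picked by design. The median r with hairpins of other genes ran from -0.28 to 0.25 among the 12. In pool 6, Grik2 hairpins TRCN0000100270 and TRCN0000100271 were both most like the same Il1a hairpin (0.96 and 0.87), TRCN0000100272 a Kcnk1 hairpin (0.94) and TRCN0000100273 an Nfyb hairpin (0.94). Ryr2 hairpins TRCN0000102843 and TRCN0000102844 were most like hairpins of Rnf4 (0.90) and Foxa1 (0.84), and in pool 16 TRCN0000413349 and TRCN0000419216 like those of Klf6 (0.84) and Pik3cd (0.87). In pool 18, Nalcn hairpins TRCN0000412654 and TRCN0000413315 were most like hairpins of Ruvbl1 (0.91) and Dusp6 (0.79). In pool 10 the neighbours depended on lung library 10C. With it they were hairpins of Fmn2 for TRCN0000173700 (0.89) and Slco1c1 for TRCN0000173744 (0.994), and without it Negr1 (0.96) and Whsc2 (0.85).

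The screen also held 31 hairpins against 8 other genes of cation channels and their subunits, among them Cacna2d1, Cacng2, Gria3, Kcnk1, Kcnn4 and Ryr3. Between day 0 and lungs, 5 of 31 were called higher and 10 lower, with a median of -0.12, where 14.7% of all hairpins were higher and 19.1% lower, with a median of -0.13. Between day 0 and culture, 11 were higher and 7 lower, with a median of 0.01, against 28.8% and 31.9% of all hairpins and a median of -0.10. Between culture and lungs, 5 of 30 were higher and 8 lower, with a median of -0.12, against 11.6% and 13.3% of all hairpins and a median of -0.11. A hairpin of Kcnk1, a background potassium channel, was called in all 3 comparisons and was the one most like Grik2 hairpin TRCN0000100272, with changes of 1.76 from day 0 to lungs (adjusted p = 0.000138), -0.47 from day 0 to culture (adjusted p = 0.00148) and 2.08 from culture to lungs (adjusted p = 3.7e-07). Hairpins called in the same direction in both comparisons against day 0, but not between culture and lungs, were 3 of Cacna2d1, a calcium channel subunit, all lower, and 1 each of Kcnn4, a calcium-activated potassium channel, and Ryr3, the related ryanodine receptor, both higher. The Cacna2d1 hairpins TRCN0000068996, TRCN0000421331 and TRCN0000436790 had changes of -1.13, -1.23 and -5.16 in lungs and -1.04, -1.32 and -3.77 in culture. Kcnn4 hairpin TRCN0000068398 had 1.01 in lungs and 0.72 in culture, and Ryr3 hairpin TRCN0000102884 had 0.81 and 0.47.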

How the data were processed

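Hairpins amplified from genomic DNA by a two-step PCR, with no molecular identifiers, were measured in all samples. The authors deposited a normalised signal per hairpin; BWA 0.5.9 was the aligner, per the submitters' processing notes. How reads were counted and scaled, and the genome build, are not stated in the sources used. In each library every deposited value was a whole multiple of the smallest (27241 of 27241 within 0.01), so reads were recovered and a hairpin without a row was taken as 0. Values of 10 samples were all missing. Technical repeats were summed.

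Reads of a pool's targeting hairpins were turned into CPM with TMM factors (edgeR 4.0.16). log2(CPM + 1) was fitted per pool and pair of groups with limma 3.58.1 in R 4.3.3, with trend and robust estimation, for hairpins with a mean of at least 10 reads, and adjusted p-values are Benjamini-Hochberg values over the hairpins of all pools together. edgeR's quasi-likelihood test and DESeq2 1.42.0 on the recovered reads were alternatives. On this log2 scale, fold changes that involve a library with few or 0 reads depend on the pseudocount.

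All 12 hairpins are named. So are, for each, the most alike hairpin of another gene in its pool, and other channel hairpins called in all 3 comparisons or in both against day 0; some items the rule covers are not reported here. Members and lists were chosen with earlier results of these data known. Leaving out lung libraries 6A and 6B, and culture library 16/17A, was added after seeing the data. Replicate letters were checked for pairing: the correlation of same-letter deviations was above 0.1 in 18 of 49 pairs for lungs against day 0, 29 of 59 for culture against day 0 and 24 of 54 for lungs against culture, and the main fits have no block. In 2 cases with members every same-letter pair was above 0.1, pool 18 for lungs against day 0 (0.17 to 0.43) and pool 6 for lungs against culture (0.14 to 0.41); nothing in the labels ties the letters, and the blocked p-values are given beside the calls they ended there.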

Additional observations from a re-analysis of the deposited data

Results flagged for a closer look

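Reads of 6 of the hairpins appeared in lung libraries of other pools above their highest level in any day 0 library of another pool, in CPM of all reads of the library. Nalcn hairpin TRCN0000173700 of pool 10 reached 57727 in lung library 16D, against at most 192 at day 0, and Nalcn hairpin TRCN0000173744 reached 1844 there, against at most 66.7. In 16D the reads of pool 10 numbered 4457120, of which TRCN0000173700 took 8.13% and TRCN0000173744 0.26%. Nalcn hairpin TRCN0000412654 of pool 18 reached 573 in 16D, against at most 66.8. Grik2 hairpin TRCN0000100273 of pool 6 reached 3628 in lung library 7C, against at most 140 at day 0 (27130 reads, 84.6% of the reads of pool 6 there). Nalcn hairpin TRCN0000413315 of pool 18 reached 2006 in lung library 17A, against at most 28.3. Ryr2 hairpin TRCN0000413349 of pool 16 reached 455 in lung library 14A, against at most 82.9. The source of these reads was not tested.

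In culture, 1 library lay apart from the other 5 for both Nalcn hairpins of pool 10. For TRCN0000173700 it was 9/10B at 13557 CPM, with 7522 CPM as the nearest, and for TRCN0000173744 it was 9/10C at 10834 CPM, with 6204 CPM as the nearest. These are 2 of 4 groups large enough to be examined, and chance alone marks about 1 in 20.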

How the results depend on the processing

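Of 960 alternative values for the 36 changes (12 hairpins, 3 comparisons), 849 kept direction and side of the threshold, 54 lost a call, 29 gained one and 28 turned sign; 9 changes kept both throughout. The cause of a turn was not tested. With library totals, signs turned for lungs against day 0 in TRCN0000102844 (-0.49) and TRCN0000173700 (-0.88), and for culture against day 0 in TRCN0000100271 (-0.20), TRCN0000413349 (-0.44) and TRCN0000413315 (-0.10). With the control reference they turned for lungs against day 0 in TRCN0000100272 (-0.54), TRCN0000102844 (-1.41), TRCN0000173700 (-4.46) and TRCN0000413349 (-2.38), for culture against day 0 in TRCN0000100271 (-0.95), TRCN0000413349 (-0.33) and TRCN0000413315 (-0.010), and for lungs against culture in TRCN0000173700 (-1.57) and TRCN0000413349 (-2.05). With the deposited values the same hairpins had -0.31, -1.19, -4.67 and -2.03 for lungs against day 0, -0.67, -0.41 and -0.058 for culture against day 0, and -1.50 and -1.62 for lungs against culture. For lungs against day 0, TRCN0000102844 had -0.73 without 6A and 6B (1 lung library left). Leaving out single replicates gave it -0.34 to 0.49, and gave TRCN0000100271 -0.047 to 0.15 and TRCN0000413315 -0.10 to 0.52 for culture against day 0.

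Hairpins called numbered 301 for lungs against day 0 (148 to 388 without single replicates), 573 for culture against day 0 (364 with 3 groups in one fit) and 221 for lungs against culture (341 with DESeq2, 142 to 249 without single replicates). With the replicate letter as a block they numbered 231, 575 and 192. The block ended the calls of TRCN0000412654 (adjusted p = 0.094), TRCN0000413349 (0.246) and TRCN0000419216 (0.128) for lungs against day 0, and of TRCN0000100270 (0.0509) and TRCN0000100273 (0.0592) for lungs against culture, and it added TRCN0000102843 for lungs against day 0 (0.0398). Depth limits lung values in 6A, 10C and 16D most.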
